A study of Mus musculus with 11 samples.

Results

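Txnip, 4 genes of the same arrestin-domain family (Arrdc1, Arrdc2, Arrdc3 and Arrdc4) and the transcription factor genes Mlxip and Mlx were followed in primary mouse hippocampal neurons. They are 7 of the 48709 genes in the count tables, found by their Ensembl identifiers, and all 7 passed the filter on low counts, which left 17365 genes. The set was put together by family and by known partnership, and it was chosen by someone who had the measured differences between mimic and control samples in view. The differences between these groups are therefore given for the 7 genes as a description. No p is given for them, and where they are counted as past the threshold of the fit over all genes, that count supports nothing.

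The cultures came from hippocampi of CD1 mouse embryos at embryonic day 17. The hippocampi were pooled across embryos, according to the study's methods. On day 10 in vitro (DIV10) they received lipid nanoparticles that carried the mimic of miR-181a-5p in 5 samples and a control oligonucleotide in 6, and RNA was taken on DIV12, after 48 h. Apolipoprotein E4 was added with the particles in both groups, according to the same methods, so the control cultures also carry the particle, the oligonucleotide load and this protein. No label says that the samples of a group came from separate preparations, and the spread between them may be technical. Total counts lay between 17287168 and 48091231 per sample, and control 1 was the deepest library.

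TXNIP and the ARRDC proteins are alpha-arrestins, adaptors that bind cargo at the plasma membrane and recruit NEDD4-family ubiquitin ligases, so that transporters and receptors are taken into the cell. TXNIP also binds thioredoxin and lowers glucose uptake by removing the glucose transporter GLUT1 from the surface. MondoA, the product of Mlxip, pairs with MLX, moves to the nucleus when phosphorylated glucose is plentiful and switches on Txnip and Arrdc4 through carbohydrate response elements in their promoters.

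The oligonucleotides and the sites that bear on these genes are shown first. The strand of the mimic equalled the RefSeq mature sequence of mmu-miR-181a-5p, and the control strand had another seed. The seed, nucleotides 2 to 8, is in capitals.
miR-181a-5p mimic: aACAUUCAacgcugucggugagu
negative control: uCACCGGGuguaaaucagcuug
The 7-nucleotide match of the mimic's seed, TGAATGT, was present in the longest annotated 3' UTR of 18.5% of the 14489 tested genes that had one, and 36.6% held a match of at least 6 nucleotides. Arrdc3, Arrdc4 and Mlxip each held 1 such 7-nucleotide match. Counting all matches of at least 6 nucleotides, Arrdc3 held 2, Arrdc4 held 2 and Mlxip held 4. Txnip and Arrdc1 held 1 match of 6 nucleotides each, and neither Arrdc2 nor Mlx held a match. The 7-nucleotide match of the control oligonucleotide was in 2.87% of these 3' UTRs and in 0 of the 7 genes.

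The Txnip match lay at chr3:96561686-96561708 on the plus strand (GRCm38). For Arrdc3, Arrdc4 and Mlxip, only the match to TGAATGT is shown. That of Arrdc3 lay at chr13:80895423-80895445 on the plus strand. That of Arrdc4 lay at chr7:68739158-68739180 on the minus strand and that of Mlxip at chr5:123457207-123457229 on the plus strand. All 4 are in 3' UTR sequence, and the capitals mark the bases that pair with the seed.
Txnip: gagaactgtgcagccaGAATGTc
Arrdc3: tgttaaatcattttgTGAATGTc
Arrdc4: gacctgggatgttacTGAATGTt
Mlxip: gggaactttccacagTGAATGTt
Arrdc3 and Mlxip, but not Txnip or Arrdc4, were on the list of predicted miR-181a-5p targets that the study used. A match is a description of the letters and says nothing of whether the site was used in these cells.

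The RefSeq promoters (GRCm38.p6, 250 bases before to 50 bases after the start) were searched on both strands for the E-box CACGTG and for copies of CACGNG spaced 5 bases apart, the form of a carbohydrate response element. Txnip held the tandem form between 85 and 69 bases before its start, at chr3:96557866-96557894 on the plus strand. Arrdc4 held an E-box 193 to 188 bases before its start, at chr7:68749420-68749437 on the minus strand, and Mlx held one 40 to 35 bases before its start, at chr11:101087244-101087261 on the plus strand. The motif is in capitals.
Txnip: actgtgCACGAGggctgCACGAGcctcca
Arrdc4: cctgtgCACGTGcactat
Mlx: ttggatCACGTGactgag
The tandem form was in 16 of 32851 promoters (0.0487%) and the E-box in 7.15%. Of the 10 tested genes with the tandem form, 1 was called, and that gene was Txnip itself. Of 1350 tested genes with an E-box, 33 were called (2.44%), beside 2.85% of all tested genes. A call is an adjusted p under 0.05 in edgeR's quasi-likelihood test of mimic against control samples.

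Txnip stood higher in the mimic samples, and the groups did not overlap. Levels are given in CPM, in which counts are scaled for library size by TMM factors. In the 6 control samples, Txnip (ENSMUSG00000038393, chr3:96557957-96561883, plus strand, GRCm38) ranged from 20.8 CPM in control 1 to 27.5 CPM in control 4, with a median of 24.8 CPM. In the 5 mimic samples it was 34.9, 37.0, 32.1, 37.9 and 38.3 CPM in mimic 1 to 5. Every mimic sample was above the highest control sample, and mimic 3 was the lowest of its group. The means were 24.3 ± 2.56 CPM (SD, n = 6) and 36.1 ± 2.56 CPM (SD, n = 5). The fitted log2 fold change, mimic minus control, was 0.59 ± 0.07 (SE), which is 50.1% higher. The counts behind these values lay between 439 and 990 per sample. By log2 fold change Txnip ranked 34 among the 188 genes called higher, and of the 55 such genes with a mean CPM at least that of Txnip, 0 had a larger log2 fold change. Txnip was chosen with this contrast in view and the cut lies at its own level, so nothing is read from these ranks. In bulk samples such as these, a change in the share of a cell type and a change in RNA per cell cannot be told apart. Of the Txnip exon bases, 606 (19.4%) are shared with the antisense gene Gm15441, which had 0 to 4 counts per sample. The strand setting of the counting is not given in the sources used here, so reads of this stretch cannot be assigned to a strand.

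**Figure D1:**
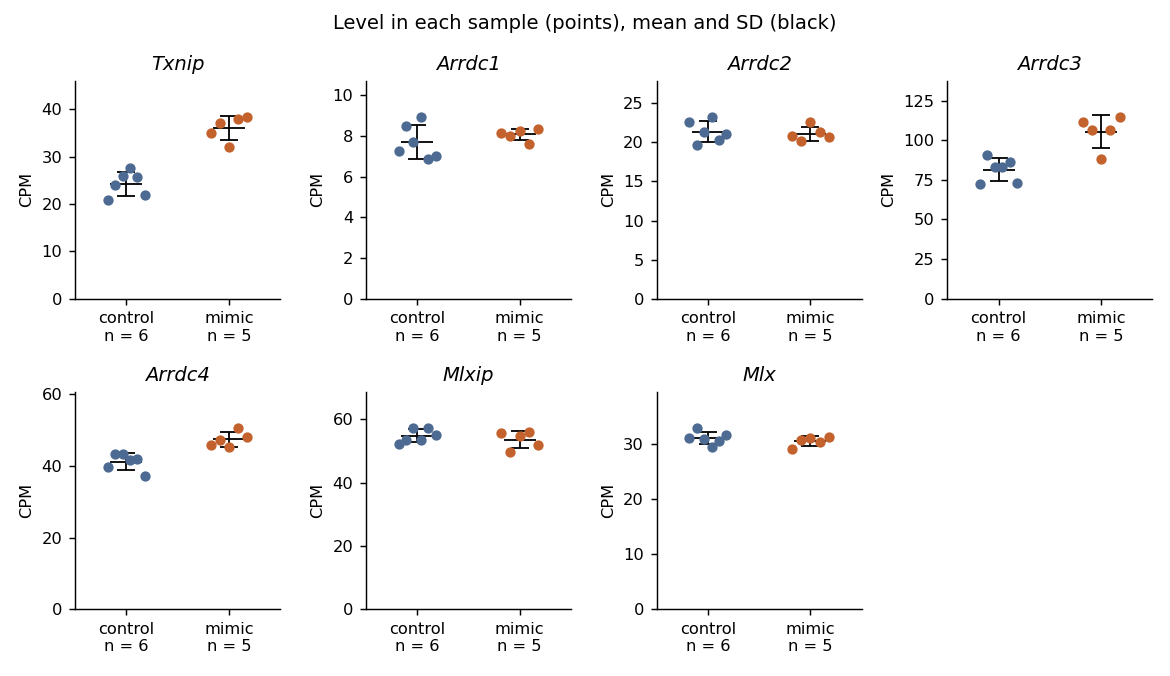
Level of each gene in CPM (y axis, from 0) in the 6 control and 5 mimic samples (x axis), with points for samples and black bars for the mean and SD. Txnip and Arrdc4 show groups that do not overlap, 4 of 5 mimic samples lie above all control samples for Arrdc3, and the groups overlap for the other genes.

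Arrdc3, whose product guides the trafficking of beta-adrenergic receptors, was also higher, but 1 mimic sample lay within the control range. The control samples ranged from 72.3 CPM in control 1 to 90.5 CPM in control 2, with a median of 83.4 CPM. The mimic samples had 111.7, 106.4, 88.2, 106.6 and 114.5 CPM, so that mimic 3 alone was below the highest control sample. The means were 81.5 ± 7.35 CPM (SD, n = 6) and 105.5 ± 10.3 CPM (SD, n = 5). The fitted difference was 0.38 ± 0.08 (SE) on the log2 scale, or 1.30-fold. Arrdc3 (ENSMUSG00000074794) lies at chr13:80883384-80896042 on the plus strand. Of 1016 predicted miR-181a-5p targets that were tested, 71 (6.99%) were called lower and 2 (0.197%) higher, beside 1.77% lower and 1.08% higher among all tested genes. The latter were Arrdc3 and Grb10, and Grb10 is named here after its values were seen.

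Arrdc4, the closest partner of Txnip in the known response to glucose, showed the smallest difference of the 3 genes that were higher. Its control samples ranged from 37.1 CPM in control 6 to 43.4 CPM in control 2, with a median of 41.8 CPM. The mimic samples had 45.7, 47.2, 45.4, 50.6 and 48.0 CPM. All 5 were above the highest control sample, and mimic 3 was again the lowest. The means were 41.2 ± 2.44 CPM (SD, n = 6) and 47.4 ± 2.08 CPM (SD, n = 5). The fitted difference was 0.21 ± 0.04 (SE) on the log2 scale, or 1.15-fold. Arrdc4 (ENSMUSG00000042659) lies at chr7:68736995-68749241 on the minus strand.

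The remaining alpha-arrestins overlapped between groups. Arrdc1, whose product drives budding of small vesicles from the plasma membrane, had 6.89 to 8.91 CPM in control samples and 7.61 to 8.34 CPM in mimic samples, and its log2 fold change was 0.06 ± 0.07 (SE). Arrdc2 had 19.6 to 23.2 CPM in control samples and 20.2 to 22.6 CPM in mimic samples, with a log2 fold change of -0.03 ± 0.05 (SE). Both differences were smaller than their errors. Arrdc1 (ENSMUSG00000026972) lies at chr2:24925352-24935252 and Arrdc2 (ENSMUSG00000002910) at chr8:70835129-70839720, both on the minus strand.

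The transcription factor genes also overlapped. Mlxip, which encodes MondoA, ranged from 52.3 to 57.3 CPM in control samples and from 49.8 to 56.0 CPM in mimic samples, and its log2 fold change was -0.03 ± 0.04 (SE). Mlx, which encodes the partner of MondoA, ranged from 29.6 to 32.9 CPM in control samples and from 29.2 to 31.4 CPM in mimic samples, with a log2 fold change of -0.03 ± 0.04 (SE). Thus the mRNA levels of both factors differed between groups by less than the spread among samples. Their activity, which depends on where the proteins are in the cell, was not measured. Mlxip (ENSMUSG00000038342) lies at chr5:123394798-123457932 and Mlx (ENSMUSG00000017801) at chr11:101087277-101092207, both on the plus strand. Mlx shares 385 exon bases (19.3%) with Psmc3ip on the opposite strand, whose mean level was 2.35 CPM in the control samples and 2.55 CPM in the mimic samples.

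**Figure D2:**
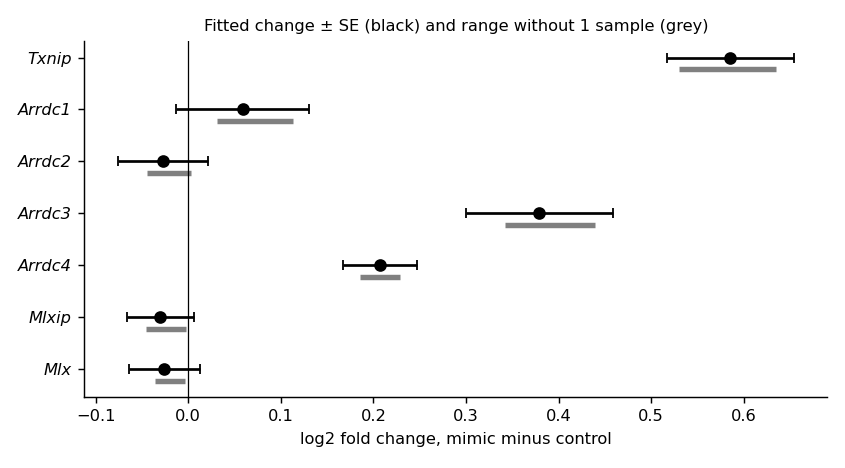
Fitted log2 fold change, mimic minus control (x axis), for each gene (y axis), with its SE in black and the range over the fits that each leave out 1 sample in grey. The grey ranges of Txnip (0.53 to 0.64), Arrdc3 (0.34 to 0.44) and Arrdc4 (0.19 to 0.23) stay above 0.

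Counted over the set, 3 of 7 genes (Txnip, Arrdc3 and Arrdc4) were called at an adjusted p under 0.05 in edgeR's quasi-likelihood test, and all 3 were higher. Over all 17365 tested genes, 2.85% were called, 1.08% higher and 1.77% lower. For 2 of the 7 genes the CPM ranges of the groups did not overlap, against 2.89% of all tested genes. Since the set was selected on this contrast, nothing is read from these shares. The median log2 fold change was 0.06 for the 7 genes and 0.00 for all tested genes. Of the 11 fits that left out 1 sample, Arrdc3 was past the threshold in 2, those without control 2 or mimic 3, and its log2 fold change over the 11 was between 0.34 and 0.44.

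Levels of different genes were compared per kb of exon (RPKM). In the control samples the order was Mlx (15.6 RPKM), Arrdc3 (13.0 RPKM), Arrdc4 (10.2 RPKM), Txnip (7.78 RPKM), Arrdc2 (6.61 RPKM), Mlxip (6.59 RPKM) and Arrdc1 (3.07 RPKM). Neighbours in this order were compared by a two-sided exact sign-flip permutation test over the 6 control samples, whose smallest possible p is 0.03125, with adjustment over 6 pairs. Mlx was above Arrdc3, Arrdc3 above Arrdc4, Arrdc4 above Txnip and Mlxip above Arrdc1 in 6 of 6 samples, each with an adjusted p of 0.0469 in the exact test. Txnip was above Arrdc2 in 5 of 6 samples, by 0.23 ± 0.17 (SD) on the log2 RPKM scale (exact adjusted p = 0.075). Arrdc2 and Mlxip differed by 0.00 ± 0.12 (SD) on that scale (exact adjusted p = 0.938), so neither pair passed the test. The pairs were taken from the order in the same 6 samples. All exon bases entered the lengths, including the 19.4% of Txnip and 19.3% of Mlx shared with an opposite-strand gene. How reads there were counted is not known. A shortfall would recur in every sample, so the test cannot separate it from a difference in level.

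In the mimic samples the order changed at the top. Arrdc3 (16.8 RPKM) was above Mlx (15.3 RPKM) in 4 of 5 samples. Txnip (11.6 RPKM) came next to Arrdc4 (11.7 RPKM), with a mean difference of 0.02 ± 0.07 (SD) on the log2 RPKM scale. Txnip was now above Arrdc2 in 5 of 5 samples, by 0.81 ± 0.15 (SD) on that scale. With 5 samples this test cannot go below a p of 0.0625, and these values are given as a description.

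**Figure D3:**
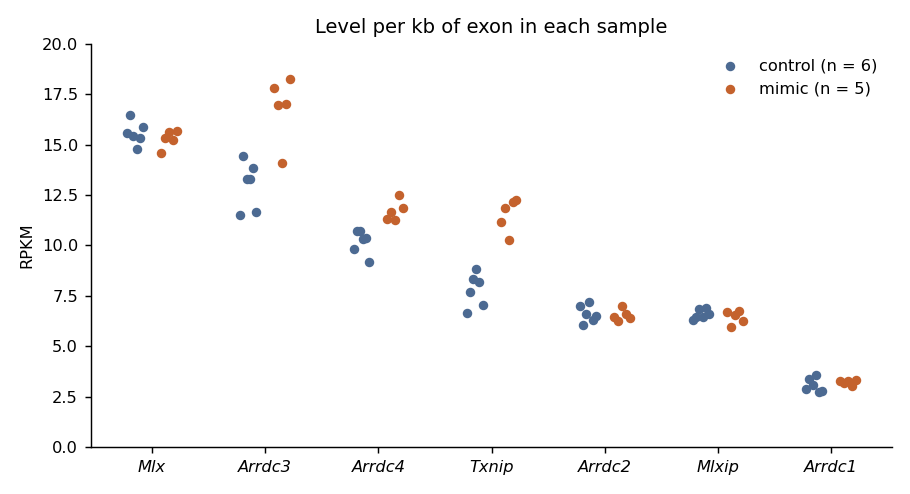
Level per kb of exon in RPKM (y axis) for each gene in order of its control mean (x axis), with 1 point per sample in control (n = 6) and mimic (n = 5). Txnip lies below Arrdc4 in the control samples and next to it in the mimic samples, while Mlx, Arrdc2, Mlxip and Arrdc1 show overlapping groups.

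Whether the genes moved together among samples of the same treatment was examined in the deviations of log2 CPM from each group's mean, which leave the treatment contrast out. Over 11 samples, Pearson's r between Txnip and Arrdc4 was 0.71 (permutation p = 0.0281, adjusted 0.0842) and Spearman's rho was 0.65 (permutation p = 0.0463, adjusted 0.271). Between Txnip and Arrdc3, r was 0.74 (permutation p = 0.0143, adjusted 0.0842) and rho was 0.56 (permutation p = 0.0905, adjusted 0.271). None of these passed the adjustment over the 6 relations with Txnip. Without control 1 and mimic 3, the samples farthest from the median of Txnip, r was 0.70 for Arrdc4 and 0.44 for Arrdc3, so the latter rests in part on those samples. For Arrdc1, Arrdc2, Mlxip and Mlx, r with Txnip was 0.38, -0.17, 0.12 and -0.36, with permutation p-values from 0.327 to 0.715.

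Of 13899 genes that averaged 1 CPM or more, the 5 whose deviations were most like those of Txnip over the 11 samples were Glis3 (r = 0.94), Bmp6 (r = 0.93), Creg1 (r = 0.93), Sparc (r = 0.93) and Cavin1 (r = 0.93). Glis3 encodes a zinc-finger transcription factor, Bmp6 a secreted growth factor, Creg1 a secreted lysosomal glycoprotein, Sparc a matrix glycoprotein and Cavin1 a coat protein of caveolae. Cavin1 rose in the mimic samples by 0.37 ± 0.07 (SE) on the log2 scale (adjusted p = 0.00713, edgeR), and the other 4 did not pass the test. Arrdc3 ranked 156 and Arrdc4 226 in this likeness. At the opposite end were Pold3, a subunit of DNA polymerase delta (r = -0.91), and Pcdhgc5, a clustered protocadherin (r = -0.90). Pcdhgc5 fell by 0.25 on the log2 scale (SE 0.05, adjusted p = 0.00491, edgeR), and its shared exons make its counts uncertain. These are the extremes of many genes measured in the same libraries and are given with no p.

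Summed markers of fibroblast and vascular cells and of dividing cells were higher in the mimic samples, and those of neurons were lower. The summed level of 10 fibroblast and vascular markers was 263 to 398 CPM in control samples and 408 to 542 CPM in mimic samples, with no overlap. Of these markers 9 were tested, 8 had a log2 fold change above 0, Cdh5 was called higher and Rgs5 lower, and 0 were at 0 in every sample. Cldn5, a defining endothelial marker, had 0 or 1 count per sample. The summed level of 6 markers of dividing cells was 45.6 to 53.2 CPM in control samples and 55.0 to 66.4 CPM in mimic samples, with Top2a and Cdk1 called higher. The sum of 8 neuron markers was 6580 to 6747 CPM against 6329 to 6474 CPM, with Slc17a7 called lower. Sums of 7 astrocyte markers (2491 to 2785 CPM against 2342 to 2612 CPM), 6 markers of the oligodendrocyte lineage (313 to 378 CPM against 285 to 329 CPM) and 7 microglia markers (13.4 to 13.7 CPM against 12.7 to 13.9 CPM) overlapped, with 0 genes called in edgeR. Of the 8 neuron markers, 0 were at 0 in every sample.

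Within groups, the deviations of Txnip followed the fibroblast and vascular sum with r = 0.75 (permutation p = 0.00998) and rho = 0.73 (permutation p = 0.0129) over 11 samples, but not after adjustment over 42 relations (0.419 for r and 0.477 for rho). Without control 1 and mimic 3, r was 0.41, so this relation rests on those samples. For Arrdc3 the same r was 0.49 (permutation p = 0.158), and for Arrdc4 it was 0.29 (permutation p = 0.425). Arrdc3 ran against the oligodendrocyte-lineage sum (r = -0.70, permutation p = 0.0266) and the astrocyte sum (r = -0.69, permutation p = 0.0327). Neither passed the adjustment (0.458 for each r). The part of any of these cell types in the higher Txnip, Arrdc3 and Arrdc4 levels was not tested.

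**Figure D4:**
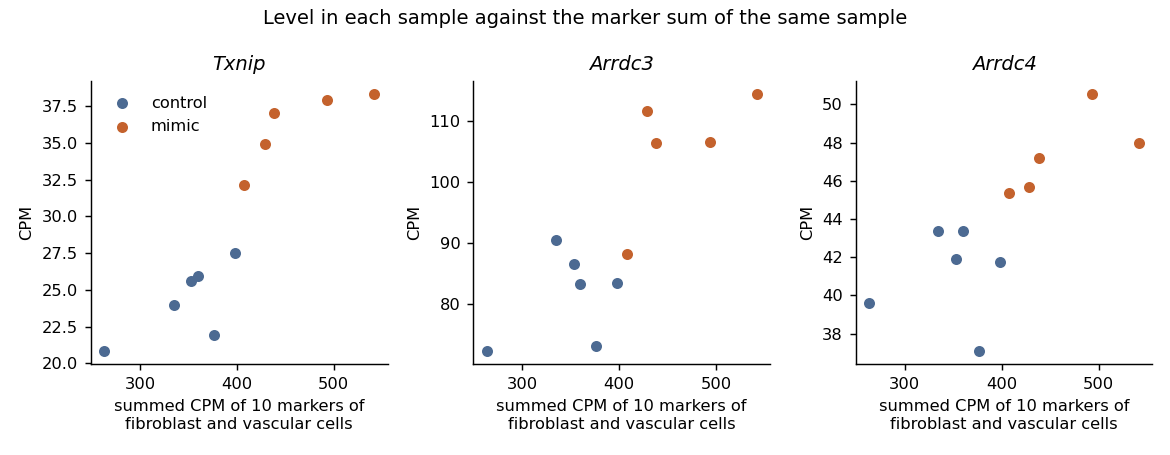
Level of Txnip, Arrdc3 and Arrdc4 in CPM (y axes) against the summed CPM of 10 fibroblast and vascular markers (x axes), with 1 point for each of 6 control and 5 mimic samples. The marker sums of the groups do not overlap (at most 398 CPM in control and at least 408 CPM in mimic samples), and control 1 has the lowest sum.

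Other genes of these pathways were counted in 8 lists. Of the 94 listed genes 91 were tested, and 3 of them (3.30%) were called, 2 higher and 1 lower, against 2.85% of all tested genes. The median log2 fold change of each list lay between -0.04 and 0.02, beside 0.00 for all tested genes.

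In the thioredoxin system, 0 of 9 tested genes were called, with a median log2 fold change of 0.02. Txn1, the thioredoxin that TXNIP binds, stood at a mean of 110 CPM in the control samples and 112 CPM in the mimic samples. The gene with the smallest p was Txnrd3, a thioredoxin reductase, with 14.1 and 15.6 CPM (adjusted p = 0.144, edgeR). In the network of Max, Myc and Mlx partners, 0 of 11 tested genes were called and the median was 0.02. The smallest p was that of Mxd3, a partner of Max, with 2.02 and 2.55 CPM (adjusted p = 0.126, edgeR). Mlxipl, which encodes ChREBP, the relative of MondoA, was near the limit of detection at 0.377 and 0.299 CPM.

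Among 28 genes of glucose uptake and glycolysis, 1 was called, and the median was 0.00. Ldhb, a subunit of lactate dehydrogenase, had a mean of 96.9 ± 2.79 CPM (SD, n = 6) in control samples. In mimic samples it was 104 ± 2.29 CPM (SD, n = 5), a rise of 0.10 ± 0.03 (SE) on the log2 scale (adjusted p = 0.047, edgeR). Its adjusted p passed the threshold in 9 of 18 alternatives and lay between 0.0178 and 0.125 over them. It was lost without control 1, 4, 5 or 6 and without mimic 1, 2 or 4. Slc2a1, which encodes GLUT1, had 21.4 and 19.8 CPM and did not pass the test (adjusted p = 0.24, edgeR).

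Of 12 glucocorticoid-responsive genes, 2 were called, and the median was -0.01. Mt2, a metal-binding metallothionein, had a mean of 27.9 ± 2.00 CPM (SD, n = 6) in control samples. In mimic samples it was 33.1 ± 1.17 CPM (SD, n = 5), a rise of 0.25 ± 0.05 (SE) on the log2 scale (adjusted p = 0.00262, edgeR). Ddit4, whose product restrains mTORC1, had a mean of 95.5 ± 3.47 CPM (SD, n = 6) in the control cultures. The mimic cultures had 87.1 ± 2.70 CPM (SD, n = 5). Ddit4 decreased by 0.13 on the log2 scale (SE 0.03, adjusted p = 0.0157, edgeR), but without control 1 its adjusted p was 0.0709 in edgeR.

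The lists closest to alpha-arrestin function held 0 called genes in edgeR. These were 11 tested NEDD4-family ligases and adaptors (smallest p in Ndfip1, an adaptor, log2 fold change 0.04, adjusted p = 0.504), 7 other arrestin-fold genes (Vps26c, -0.06, adjusted p = 0.428), 7 ARRDC1 vesicle and receptor cargo genes (Pdcd6ip, which encodes ALIX, -0.06, adjusted p = 0.323) and 6 AMPK subunits (Prkab2, 0.04, adjusted p = 0.554). Arrdc5, a further family member, had 0 or 1 count per sample and was not tested.

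**Figure D5:**
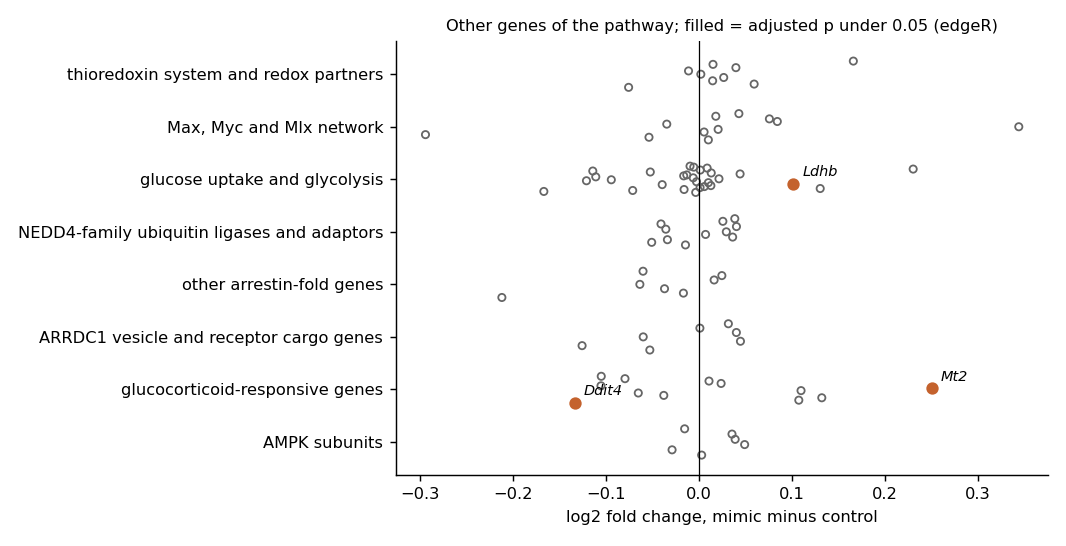
Log2 fold change, mimic minus control (x axis), of each tested gene in 8 pathway lists (y axis), with filled points for genes at an adjusted p under 0.05 in edgeR. The 3 filled points are Ldhb, Mt2 (both higher) and Ddit4 (lower).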

How the data were processed

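Raw counts of 11 samples were used. The authors made poly(A) libraries (TruSeq v2), sequenced 50 bp single-end reads, mapped them to mm10 with STAR 2.5.2b and deposited counts per Ensembl gene from featureCounts (Subread 1.5.1). Which annotation release, strand setting and treatment of multi-mapping reads they used is not given in the sources used here. A table of normalized signal that the authors deposited, the raw counts divided by 1 size factor per sample, served as an alternative alone. Samples were grouped by their labels.

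The test took genes with 5 or more counts in 50% or more of the samples. They were fitted with edgeR 4.0.16 (R 4.3.3; two-sided quasi-likelihood test, TMM, robust, group alone, Benjamini-Hochberg), and an adjusted p under 0.05 was a call. The filter and threshold follow the study's methods, whose tool, DESeq2 (1.42.0 here), was an alternative, as were limma 3.58.1 on log2(signal + 1), other scalings and filters, each sample left out, and a replicate block. The scripts were tested on simulated data. The SE was taken as log2 fold change over root F. Exon lengths, positions and 3' UTRs came from GENCODE M21 (GRCm38), promoters and miRNAs from RefSeq. Log2 RPKM used a pseudocount of 0.1. Correlations over samples used 86400 exact orders within groups. Predicted targets were matched by symbol. Depth bears on counting error only, since reads carry no molecular identifiers.

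The genes, lists and tests were chosen with earlier results of these data known, and the correlation tests and the choice of sequences shown after the values were seen. Genes named were the 7, the called genes of each list or, with none called, that with the smallest p, and the 5 most and 2 least like Txnip. Txn1, Slc2a1, Mlxipl, Arrdc5, Grb10, markers and genes overlapping the 7 were named beside this rule. Protein sequences were not used here.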

Additional observations from a re-analysis of the deposited data

Results flagged for a closer look

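In 20 sets of values tested for a sample far from the others of its group, 2 stood out, and chance gives about 1. Arrdc3 in mimic 3 had a log2 CPM of 6.46 (88.2 CPM), with the nearest mimic sample at 6.73. The gap was 0.719 of the group's range. Ddit4 in mimic 5 had a log2 CPM of 6.37 (82.4 CPM), with the nearest mimic sample at 6.45. The gap was 0.755 of the range.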

How the results depend on the processing

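The log2 fold changes of the 7 genes moved by less than 1 SD in all 126 recomputed values. Beside the ranges without 1 sample, they were 0.55 to 0.60 for Txnip, 0.35 to 0.39 for Arrdc3 and 0.18 to 0.22 for Arrdc4. Arrdc3 was not called with no count filter or under the replicate block. Over all genes, 495 were called (188 higher, 307 lower), against 564 with DESeq2. With no count filter 785 were called (300 higher, 485 lower) and 5 listed pathway genes. Upper-quartile scaling called 234 higher and 226 lower. Leaving out 1 sample gave 218 to 491 calls (68 to 229 higher, 141 to 295 lower) and 1 to 5 listed pathway genes, with the lowest totals without control 1 (218), mimic 2 (237) and mimic 4 (278). The cause was not tested. Replicate numbers showed no sign of pairing the samples. Same-numbered deviations correlated by -0.02 to 0.01 over 5 pairs, and other-numbered ones by -0.06 to 0.07 over 25 pairs. A weak effect of a shared preparation is not excluded by these values. With the numbers as a replicate block, which leaves out control 6, 328 genes were called (154 lower), Ldhb lost its call, and Mt2 and Ddit4 kept theirs. In CPM not divided by length, Mlx minus Arrdc3 was -1.38 and Arrdc2 minus Mlxip -1.36 (log2), since length enters the order. In the mimic samples, these log2 RPKM differences were -0.13 for Mlx minus Arrdc3, 0.51 for Arrdc3 minus Arrdc4, 0.0234 for Arrdc4 minus Txnip and 0.81 for Txnip minus Arrdc2. Of the 5 genes most like Txnip, all 5 stayed among the 100 highest under every alternative but the filter at a mean of 10 CPM, where 4 did, since Bmp6 (6.86 CPM) is below it. Differences of a few counts in genes such as Mlxipl were not detectable at this depth.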
